A study of Mus musculus with 4 samples.

Results

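The genes described here are 45 mouse genes of the cell division cycle, from the cyclins and kinases that start it to the proteins that part the chromosomes and the daughter cells. They were listed by name with earlier results of these data known, while the rule that finds them uses no measured value. A gene was taken up where the array's annotation gave a probe set exactly 1 symbol and that symbol was on the list. This held for 44 of the 45 genes, through 107 of 45101 probe sets, and Ccnb1 was not matched under its symbol. Of the 44 genes, 32 passed a filter that left out the dimmest 40% of probe sets by mean value, and were tested among 13379 genes, each through 1 probe set. The values come from liver RNA of 4 male C57BL/6J mice, each on 1 one-colour Affymetrix array. There were 2 Cnot3+/- mice, labelled as heterozygotes for Cnot3, and 2 wild-type mice. All were 12 weeks old, had been kept on normal chow and had then gone without food for 24 h, housed singly. The labels call the samples biological replicates and do not describe the Cnot3 allele. The arrays are called Cnot3+/- 1, Cnot3+/- 2, wild-type 1 and wild-type 2. Values are log2 expression values made by the authors with RMA, so that a difference of 1 is a 2-fold difference in signal, and the number of arrays limits the precision of each.

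A cell enters division when D-type cyclins, with their kinase partners, and then cyclin E with CDK2 free the E2F factors from the pocket proteins that hold them. E2F switches on the genes of DNA replication, and later FOXM1 and its partners switch on the genes of mitosis, among them cyclin B and CDK1, which drive the cell into mitosis. The anaphase-promoting complex, with CDC20 and UBE2C, then destroys the cyclins and lets the chromosomes part. Most hepatocytes of an adult liver rest outside the cycle and return to it after loss of liver tissue, while other cells of the organ, such as macrophages and lymphocytes, can also divide there. In bulk tissue, fewer cells of a type and less RNA per cell cannot be told apart. CNOT3 belongs to CCR4-NOT, the complex that removes poly(A) tails from mRNAs, and the comparison asks which transcripts of the fasted liver differ when 1 Cnot3 copy is altered.

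The arrays had like distributions, with medians between 4.62 and 4.66. Cnot3 itself read 7.70 and 7.86 on the Cnot3+/- arrays, against 7.48 and 8.14 on the wild-type arrays. Its difference of -0.03 (SE 0.25) had an adjusted p of 1 in limma, so that this probe set did not separate the genotypes. The sources used here do not say whether it lies in the altered stretch of the gene. The array Cnot3+/- 2 stood apart. It lay at least 2-fold from Cnot3+/- 1 in 432 genes, or 3.23% of those tested, against 74 genes between the wild-type arrays. All 10 hepatocyte markers looked at were measured, the lowest at a level of 12.19. Macrophage and Kupffer cell markers were highest on Cnot3+/- 2 in 12 of 12 cases, with a summed linear signal of 4106 and 15790 on Cnot3+/- 1 and 2, against 4656 and 5304 on wild-type 1 and 2. Markers of T and NK cells, of which 10 of 12 were matched, did likewise in 8 of 10 cases, counting Cd4, which tied with wild-type 1. Their sums were 233.4 and 580 on the Cnot3+/- arrays, against 266.5 and 251.3 on the wild-type arrays.

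No cell cycle gene passed the test between the genotypes, and most of the high values of the mitotic genes lay on 1 array. At an adjusted p under 0.05 (limma, Benjamini-Hochberg over all genes tested), 0 of the 32 genes passed, where 0.0149% of all genes did (2 of 13379), and their adjusted p lay between 0.999 and 1. At an unadjusted p under 0.05 there was 1, Ccnb2, where 3.59% of all genes passed. The wild-type mean of Ccnb2, 3.95, lies under the filter's cutoff of 4.06. The difference, Cnot3+/- minus wild-type, was above 0 for 22 of the 32 genes and below 0 for 10. Its median was 0.11 for the 32 genes and -0.01 for all genes, and it ran from -0.35 (Rrm2) to 1.56 (Ccnb2). Groups that did not overlap and were higher in Cnot3+/- were found for 5 genes (Mcm4, Rrm1, Ccnb2, Cdc20 and Prc1), or 15.6%, beside 14.1% of all genes. Groups that did not overlap and were lower in Cnot3+/- were found for 4 (Foxm1, Mcm7, Rrm2 and Bub1b), or 12.5%, beside 17.4% of all genes. Both shares are near or under those of all genes. They rest on 1 probe set per gene. Every other probe set of Mcm4, Rrm1, Foxm1, Mcm7, Rrm2 and Bub1b that passed the filter gave overlapping groups. Those of Cdc20 gave 0.14 with overlapping groups and 1.42 with groups apart.

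**Figure D1:**
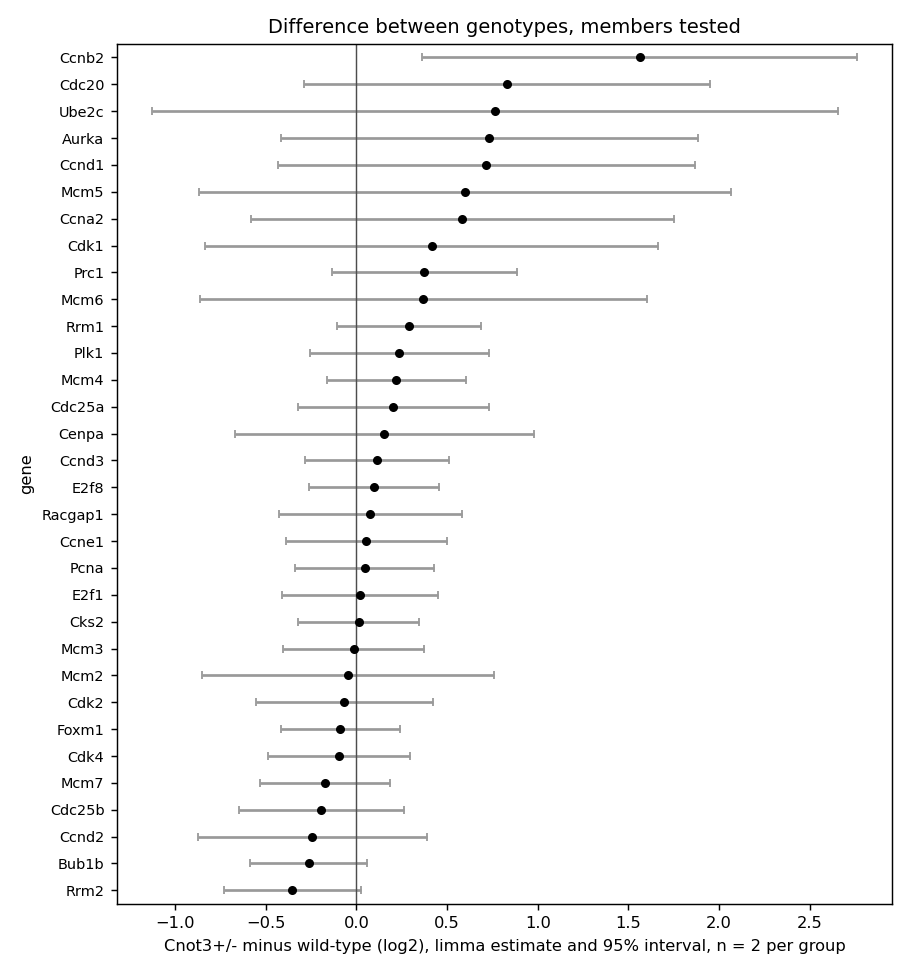
Difference between the genotypes for the 32 cell cycle genes tested, as log2 difference Cnot3+/- minus wild-type, one row per gene in order of size. Points are limma estimates and bars their 95% intervals, with 2 arrays per group. The interval of Ccnb2 (0.36 to 2.76) lies above 0 before adjustment, and every other interval holds 0.

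The high values came mostly from 1 of the Cnot3+/- animals. Array Cnot3+/- 2 held the highest of the 4 values for 21 of the 32 genes, or 65.6%, beside 24.9% of all genes tested. Wild-type 1 held it for 6, wild-type 2 for 4 and Cnot3+/- 1 for 1. Cnot3+/- 1 held the lowest value for 16 of the 32 genes and Cnot3+/- 2 for 0. Set against the wild-type mean, the median of the 32 genes was -0.11 on Cnot3+/- 1 and 0.30 on Cnot3+/- 2, while that of all genes was -0.01 on each. Cnot3+/- 2 lay at least 2-fold above each of the other arrays for 7 of the 32 genes (Ccnd1, Mcm5, Ccna2, Ccnb2, Cdk1, Cdc20 and Ube2c), or 21.9%, beside 1.56% of all genes. With no filter on dim probe sets it did so for 8 of 44 genes, or 18.2%, beside 1.25% of all genes. No cell cycle gene stood so on another array. The Cnot3+/- pair lay further apart than the wild-type pair for 23 of the 32 genes, beside 6702 of 13379, and at least 2-fold apart for 9 genes, against 0 between the wild-type arrays. The macrophage and T and NK cell sums given above are highest on this same array, and their part in these values was not tested.

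**Figure D2:**
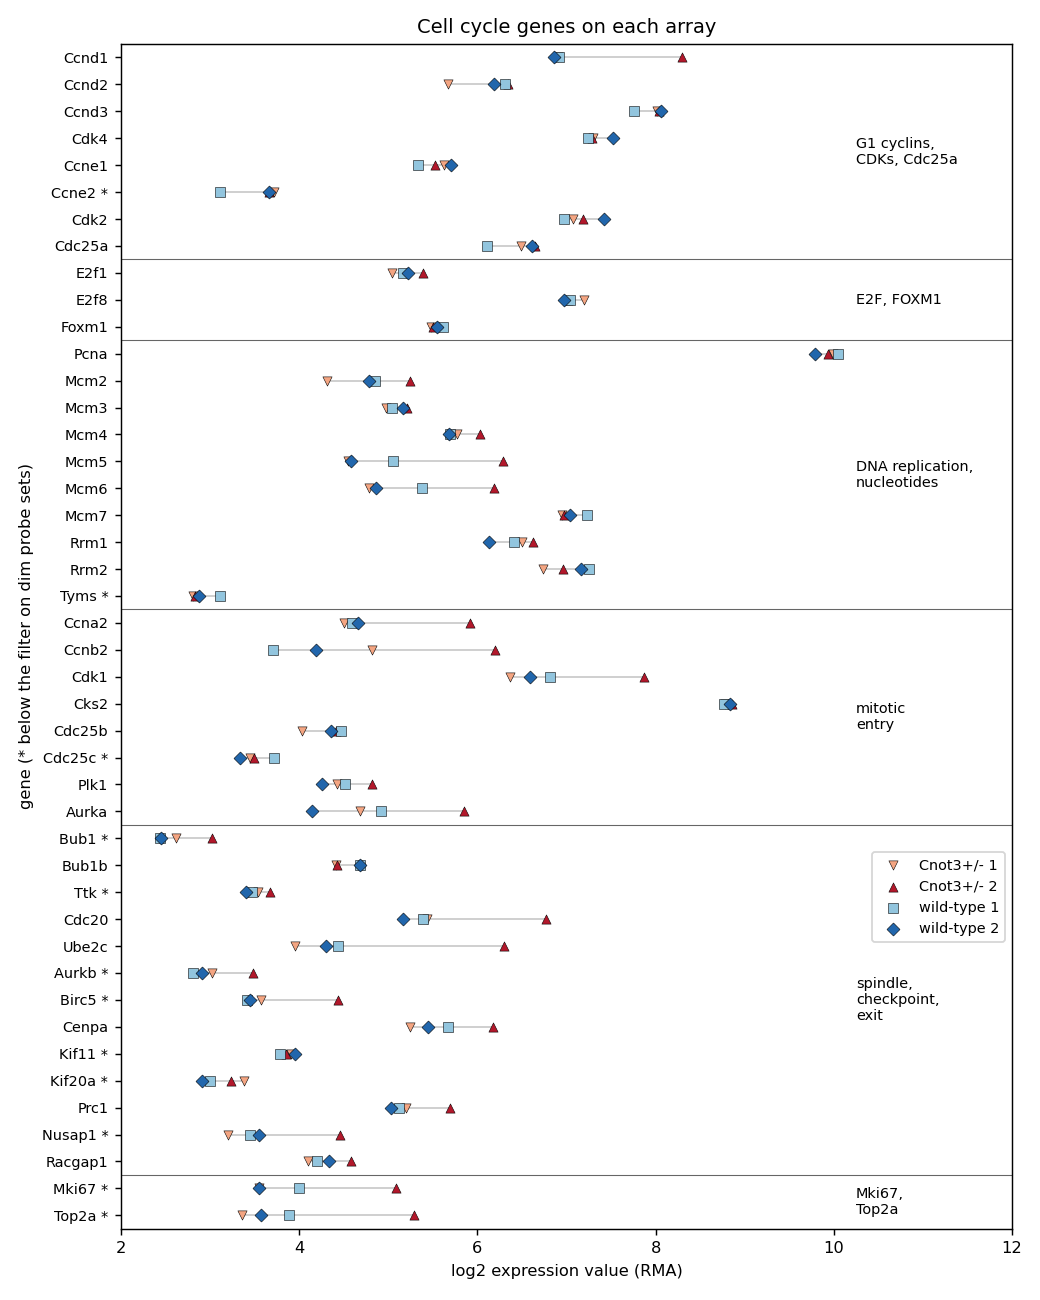
Log2 expression value of each of the 44 cell cycle genes on the 4 arrays, grouped by role, with a grey line from the lowest to the highest array. Asterisks mark the 12 genes below the filter on dim probe sets. Cnot3+/- 2 lies to the right of the other arrays for Ccnd1, for Mcm5 and Mcm6 and for most genes of mitosis, while the E2F and FOXM1 genes lie close together on all arrays.

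Without Cnot3+/- 2 the median of the 32 genes was -0.11, with 13 above 0 and 19 below. Without Cnot3+/- 1 it was 0.30, with 25 above 0 and 7 below. In that second fit 38 of all 13379 genes passed, among them 1 cell cycle gene, Ube2c, at an adjusted p of 0.0482 (limma), with the lone Cnot3+/- array assumed to vary like the wild-type arrays. Without wild-type 1 the counts were 17 above 0 and 15 below, and without wild-type 2 they were 24 and 8.

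Among the genes of the G1 phase, cyclin D1 was high on Cnot3+/- 2 alone, and no other G1 gene reached a difference of 0.5 in size. Ccnd1, whose protein brings CDK4 into action in answer to growth signals, had 6.91 and 8.30 on Cnot3+/- 1 and 2, against 6.91 and 6.86 on wild-type 1 and 2. The other 3 arrays lie close together, and Cnot3+/- 2 stands 2.66-fold above the wild-type mean. The groups overlap, and the difference of 0.72 (SE 0.45) shrank to 0.02 without Cnot3+/- 2. Its sister Ccnd2 was lowest on Cnot3+/- 1, with 5.67 and 6.34 on the Cnot3+/- arrays and 6.31 and 6.19 on the wild-type arrays, a difference of -0.24. Other Ccnd2 probe sets that passed the filter gave differences of -0.05, -0.01, 0.01 and 0.09, with overlapping groups. In most of them Cnot3+/- 2 is the highest array, as with 5.29 and 6.28 on Cnot3+/- 1 and 2, against 5.89 and 5.71 on wild-type 1 and 2. Ccnd3 had 8.01 and 8.04 on the Cnot3+/- arrays and 7.76 and 8.06 on the wild-type arrays. Cdk4, the kinase partner of the D cyclins, had 7.30 and 7.28 on the Cnot3+/- arrays and 7.25 and 7.53 on the wild-type arrays. For Ccnd3 and Cdk4 the differences of 0.11 (SE 0.16) and -0.10 (SE 0.15) are smaller than their errors. Cyclin E acts next, with CDK2, at the start of replication. Ccne1 had 5.62 and 5.52 on the Cnot3+/- arrays and 5.33 and 5.70 on the wild-type arrays, and Cdk2 had 7.08 and 7.19 on the Cnot3+/- arrays and 6.97 and 7.42 on the wild-type arrays. Cdc25a, a phosphatase that removes the brake from CDK2, had 6.49 and 6.64 on the Cnot3+/- arrays and 6.11 and 6.61 on the wild-type arrays. In all 3 the groups overlap. Ccne2 lay below the filter, with 3.72 and 3.66 on the Cnot3+/- arrays and 3.11 and 3.66 on the wild-type arrays. Over the 7 G1 genes tested, 4 differences were above 0 and 3 below, with a median of 0.06, and Cnot3+/- 2 was highest for 3 and wild-type 2 for 4.

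The transcription factors of the cycle lay close together on all arrays. E2f1, which activates the genes of S phase, had 5.04 and 5.39 on Cnot3+/- 1 and 2, against 5.16 and 5.23 on wild-type 1 and 2. E2f8, an atypical E2F that represses those genes, had 7.20 and 7.01 on Cnot3+/- 1 and 2, against 7.04 and 6.98 on wild-type 1 and 2. Foxm1, an activator of mitotic genes, had 5.48 and 5.50 on Cnot3+/- 1 and 2, against 5.62 and 5.54 on wild-type 1 and 2. The groups overlap for E2f1 and E2f8. Both Cnot3+/- values of Foxm1 lie under both wild-type values, by a difference of -0.09 (SE 0.13) that is smaller than its error. On Cnot3+/- 2, set against the wild-type mean, the mean of these 3 genes was 0.04, beside 0.93 for the 7 genes of mitotic entry. Those 7 include Ccnb2, which was tested through its higher Cnot3+/- values.

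The genes of DNA replication did not go one way. The proteins MCM2 to MCM7 together form the helicase that unwinds DNA at the fork. Mcm5 was the most uneven of them, with 4.55 and 6.29 on Cnot3+/- 1 and 2, against 5.05 and 4.58 on wild-type 1 and 2. Mcm6 had 4.79 and 6.19 on Cnot3+/- 1 and 2, against 5.38 and 4.86 on wild-type 1 and 2. Both are high on Cnot3+/- 2, at 2.77-fold and 2.1-fold the wild-type mean, and lowest on Cnot3+/- 1, so that the groups overlap. Their differences of 0.60 (SE 0.58) and 0.37 (SE 0.48) turned to -0.27 and -0.33 without Cnot3+/- 2. The Mcm5 values rest on a probe set of the _x_at kind. With no filter on dim probe sets Mcm5 was read through another, with 3.08 and 3.98 on the Cnot3+/- arrays and 3.45 and 3.40 on the wild-type arrays, where the difference was 0.10 and Cnot3+/- 2 was no longer 2-fold above the rest. Mcm2 showed the same order at a smaller size, with 4.31 and 5.24 on the Cnot3+/- arrays and 4.85 and 4.79 on the wild-type arrays. Mcm4 had 5.77 and 6.03 on the Cnot3+/- arrays and 5.69 and 5.68 on the wild-type arrays. Mcm3 had 4.97 and 5.21 on the Cnot3+/- arrays and 5.04 and 5.17 on the wild-type arrays. Mcm7 had 6.95 and 6.97 on the Cnot3+/- arrays and 7.23 and 7.04 on the wild-type arrays. On the probe sets used, the groups are apart for Mcm4, higher in Cnot3+/- by 0.22 (SE 0.15). They are also apart for Mcm7, lower by a difference of -0.17 (SE 0.14). The gene for the clamp that holds the polymerase on DNA, Pcna, had 9.99 and 9.94 on the Cnot3+/- arrays and 10.05 and 9.79 on the wild-type arrays, and its difference of 0.05 (SE 0.15) is smaller than its error.

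Ribonucleotide reductase, which makes the deoxynucleotides, gave opposite signs for its subunits on the probe sets used. The large subunit Rrm1 had 6.50 and 6.62 on Cnot3+/- 1 and 2, against 6.41 and 6.13 on wild-type 1 and 2, a difference of 0.29 (SE 0.16). The small subunit Rrm2 had 6.73 and 6.96 on Cnot3+/- 1 and 2, against 7.25 and 7.16 on wild-type 1 and 2, a difference of -0.35 (SE 0.15) with an adjusted p of 0.999 (limma). In each gene the groups do not overlap on these probe sets. Another Rrm1 probe set that passed the filter had 5.69 and 5.75 on Cnot3+/- 1 and 2. Against 6.14 and 5.22 on wild-type 1 and 2, its difference was 0.04 and its groups overlap. A further Rrm1 probe set, below the filter, gave -0.03. Other Rrm2 probe sets that passed gave -0.41 and -0.35, with overlapping groups. The difference in sign between the subunits was not tested. Tyms, thymidylate synthase, lay below the filter with 2.81 and 2.84 on the Cnot3+/- arrays and 3.12 and 2.88 on the wild-type arrays. Of the 9 replication genes tested, 5 differences were above 0 and 4 below, with a median of 0.05. On Cnot3+/- 1 their mean stood at -0.17 against the wild-type mean, and on Cnot3+/- 2 at 0.38.

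Many genes of mitosis share 2 short promoter elements. The CHR, or cell cycle genes homology region, is bound by the complex that silences these genes in resting cells and activates them with FOXM1 in dividing ones, and the CCAAT box is bound by NF-Y. The letters TTTGAA or TTCGAA for the CHR and CCAAT for the box were searched on both strands in the 250 bases before the first start that RefSeq lists, in build GRCm38.p6. TTCGAA reads alike on both strands, and the CHR and CCAAT letters were counted apart from each other. A promoter was found for 36 of the 45 genes and for 27025 genes in all. The 4 printed here are those with the largest differences among the genes whose window holds both elements. Capitals mark the letters searched or their reverse complement (TTCAAA and ATTGG), and each is written 5′ to 3′ toward the start. In Ube2c a pair of CCAAT matches on opposite strands overlaps. Ccnb2 lies at chr9:70421555-70421804 on the minus strand, Cdc20 at chr4:118437344-118437593 on the minus strand, Ube2c at chr2:164769679-164769928 on the plus strand and Top2a at chr11:99024190-99024439 on the minus strand.
Ccnb2: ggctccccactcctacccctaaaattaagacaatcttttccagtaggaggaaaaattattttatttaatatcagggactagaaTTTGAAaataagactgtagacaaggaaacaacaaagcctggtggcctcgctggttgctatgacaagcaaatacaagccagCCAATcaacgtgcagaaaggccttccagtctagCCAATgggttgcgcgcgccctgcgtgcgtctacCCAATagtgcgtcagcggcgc
Cdc20: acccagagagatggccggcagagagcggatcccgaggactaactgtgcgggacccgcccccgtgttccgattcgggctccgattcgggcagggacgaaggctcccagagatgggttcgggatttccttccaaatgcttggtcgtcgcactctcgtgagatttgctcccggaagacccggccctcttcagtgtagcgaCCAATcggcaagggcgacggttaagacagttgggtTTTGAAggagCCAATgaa
Ube2c: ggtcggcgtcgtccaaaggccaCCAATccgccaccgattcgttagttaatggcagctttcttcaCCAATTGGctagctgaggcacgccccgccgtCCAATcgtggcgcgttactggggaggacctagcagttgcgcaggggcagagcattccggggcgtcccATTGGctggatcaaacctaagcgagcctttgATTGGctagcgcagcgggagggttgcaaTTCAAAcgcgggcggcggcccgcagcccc
Top2a: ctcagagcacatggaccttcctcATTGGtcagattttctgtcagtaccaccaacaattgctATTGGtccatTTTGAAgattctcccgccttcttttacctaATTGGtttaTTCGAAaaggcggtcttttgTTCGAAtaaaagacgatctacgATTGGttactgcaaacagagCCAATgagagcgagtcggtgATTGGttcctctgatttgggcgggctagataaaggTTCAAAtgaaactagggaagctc
Ccnb2 holds 1 CHR and 3 CCAAT matches, Cdc20 1 and 2, Ube2c 1 and 6, and Top2a 4 and 6.

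Both elements stood in 11 of 36 windows, or 30.6%, beside 6.21% of all promoters. A CCAAT box stood in 29 of 36, or 80.6%, beside 34.5%, and the CHR letters in 11 of 36, or 30.6%, beside 17.4%. E2F letters, searched on both strands as TTTCGCGC, TTTGGCGC, TTTCCCGC and TTTGCCGC, stood in 6 of 36, or 16.7%, beside 1.91%. In the windows of 103 other cell cycle genes, the CHR letters stood in 28.2%, the CCAAT box in 52.4%, both in 19.4% and the E2F letters in 17.5%. The shares of the 36 genes for the CHR and for E2F are thus close to those of the other cell cycle genes. By role, the 7 genes of mitotic entry with a window all held a CCAAT box, as did 9 of 11 spindle and exit genes and 8 of 9 replication genes, but 2 of 5 G1 genes. E2F letters were in 3 of 9 replication genes (Mcm5, Mcm6 and Mcm7) and in 2 of 5 G1 genes (Cdc25a and Cdk2). Of the 11 genes with both elements, 6 lay at least 2-fold above the wild-type mean on Cnot3+/- 2 (Ccnb2, Cdc20, Cdk1, Mki67, Top2a and Ube2c), and 5 did not (Mcm2, Mcm7, Bub1b, Kif11 and E2f8). Of 24 genes on the array whose window lacks 1 or both, 4 did (Aurka, Birc5, Mcm5 and Mcm6). Ccnd1 and Ccna2, at 2.66-fold and 2.44-fold the wild-type mean on that array, had no window and are in neither count. Top2a counts through 1 of its 3 probe sets, and Mcm5 through a probe set of the _x_at kind. The same share over all genes was not counted, and a link between the elements and the levels was not tested. A match describes the letters in this window and not a site in use.

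The genes of mitotic entry held the largest difference of all 32, that of cyclin B2, which with CDK1 drives entry into mitosis. Ccnb2, whose promoter is printed above, had 4.82 and 6.20 on Cnot3+/- 1 and 2, against 3.70 and 4.19 on wild-type 1 and 2. Both Cnot3+/- values lie above both wild-type values, with Cnot3+/- 2 the higher of the pair at 4.76-fold the wild-type mean. That mean of 3.95 lies under the filter's cutoff of 4.06, so that Ccnb2 was tested through its higher Cnot3+/- values. The difference was 1.56 (SE 0.47), or 2.95-fold, with an adjusted p of 0.999 (limma). It was 0.88 without Cnot3+/- 2 and 2.25 without Cnot3+/- 1. Cdk1, the kinase itself, had 6.36 and 7.87 on Cnot3+/- 1 and 2, against 6.81 and 6.59 on wild-type 1 and 2. Ccna2, whose protein serves CDK2 in S phase and CDK1 later, had 4.50 and 5.92 on Cnot3+/- 1 and 2, against 4.60 and 4.66 on wild-type 1 and 2. Aurka, a kinase that ripens the centrosomes, had 4.69 and 5.85 on Cnot3+/- 1 and 2, against 4.92 and 4.15 on wild-type 1 and 2. In these 3 genes Cnot3+/- 2 is the highest array, at 2.25-fold, 2.44-fold and 2.48-fold the wild-type mean, and Cnot3+/- 1 lies among or below the wild-type values. Their differences were 0.42 (SE 0.49), 0.58 (SE 0.46) and 0.73 (SE 0.45), and without Cnot3+/- 2 they were -0.34, -0.12 and 0.15.

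The remaining genes of this step lay closer together. Plk1, a kinase that acts at many steps of mitosis, had 4.42 and 4.82 on the Cnot3+/- arrays and 4.51 and 4.26 on the wild-type arrays. Cks2, a small protein that binds CDKs, had 8.77 and 8.86 on the Cnot3+/- arrays and 8.77 and 8.84 on the wild-type arrays, and its difference of 0.01 (SE 0.13) is the smallest in size of the 32. The phosphatases CDC25B and CDC25C switch on CDK1. Cdc25b had 4.03 and 4.41 on the Cnot3+/- arrays and 4.47 and 4.35 on the wild-type arrays, while Cdc25c, below the filter, had 3.44 and 3.50 on the Cnot3+/- arrays and 3.72 and 3.34 on the wild-type arrays. The groups of all these genes overlap. Over the 7 genes tested, 6 differences were above 0 and 1 below, with a median of 0.42. Cnot3+/- 2 was highest for 6 of the 7, and the medians against the wild-type mean were -0.03 on Cnot3+/- 1 and 1.17 on Cnot3+/- 2. The 7 include Ccnb2, which was tested through its higher Cnot3+/- values. With no filter on dim probe sets, the medians over 8 genes were -0.06 on Cnot3+/- 1 and 0.80 on Cnot3+/- 2.

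Genes of the spindle, its checkpoint and the exit from mitosis were mostly highest on the same array. Cdc20, which activates the anaphase-promoting complex and holds CHR and CCAAT letters close before its start, had 5.44 and 6.77 on Cnot3+/- 1 and 2, against 5.39 and 5.16 on wild-type 1 and 2. Its groups do not overlap, but Cnot3+/- 1 lies by the wild-type values and Cnot3+/- 2 at 2.82-fold their mean. The difference was 0.83 (SE 0.44), and 0.16 without Cnot3+/- 2. Ube2c, the ubiquitin-conjugating enzyme of that complex, had 3.96 and 6.30 on Cnot3+/- 1 and 2, against 4.43 and 4.30 on wild-type 1 and 2. Here Cnot3+/- 1 is the lowest array and Cnot3+/- 2 the highest, 3.84-fold above the wild-type mean, a gap of 2.35 between animals of 1 genotype that is the widest of the 32 genes. The difference of 0.77 (SE 0.74) became -0.41 without Cnot3+/- 2 and 1.94 without Cnot3+/- 1. Cenpa, the histone H3 variant of the centromere, had 5.25 and 6.18 on the Cnot3+/- arrays and 5.67 and 5.44 on the wild-type arrays. Prc1, which bundles the microtubules of the central spindle, had 5.20 and 5.69 on the Cnot3+/- arrays and 5.12 and 5.03 on the wild-type arrays. Racgap1, a subunit of centralspindlin in cytokinesis, had 4.10 and 4.58 on the Cnot3+/- arrays and 4.20 and 4.33 on the wild-type arrays. Cnot3+/- 2 is highest in each of these 3, and the groups are apart for Prc1 alone, at 0.37 (SE 0.20).

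The checkpoint kinase genes did not share 1 pattern. Bub1b, whose protein holds CDC20 in check, had 4.41 and 4.43 on Cnot3+/- 1 and 2, against 4.68 and 4.68 on wild-type 1 and 2. On the probe set used, its arrays pair by genotype almost without spread. It is lower in Cnot3+/- there by a difference of -0.26 (SE 0.13), with an adjusted p of 0.999 (limma). Another Bub1b probe set that passed the filter had 4.17 and 4.56 on Cnot3+/- 1 and 2, against 4.30 and 4.68 on wild-type 1 and 2. Its difference was -0.13, and its groups overlap. A further Bub1b probe set, below the filter, differed by 0.31 the other way. Bub1 and Ttk, kinases of the same checkpoint, lay below the filter. Bub1 had 2.61 and 3.02 on the Cnot3+/- arrays and 2.44 and 2.45 on the wild-type arrays, and Ttk had 3.54 and 3.67 on the Cnot3+/- arrays and 3.47 and 3.41 on the wild-type arrays. On these probe sets their Cnot3+/- values lie above the wild-type ones, at levels where RMA values of dim probe sets are compressed. Another probe set of each, also below the filter, gave overlapping groups, with differences of 0.04 for Bub1 and -0.10 for Ttk. Over the 6 genes of this role that were tested, 5 differences were above 0 and 1 below, with a median of 0.26. Cnot3+/- 2 was highest for 5 of the 6, and for 10 of 13 when the dim genes are counted.

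The 12 genes below the filter lay between the 7.33 and 39.7 percentiles of all probe sets and were not tested. Those highest on Cnot3+/- 2 numbered 7 of the 12. Mki67, the gene of the proliferation antigen Ki-67, had 3.55 and 5.09 on Cnot3+/- 1 and 2, against 4.0 and 3.55 on wild-type 1 and 2. Top2a, the topoisomerase that untangles chromosomes, had 3.36 and 5.29 on Cnot3+/- 1 and 2, against 3.89 and 3.58 on wild-type 1 and 2. Both lie just under the filter at 40%, and on these probe sets both are high on Cnot3+/- 2 alone, at 2.49-fold and 2.95-fold the wild-type mean. The 2 other probe sets of Top2a do not show this and have Cnot3+/- 2 as their lowest array, with 3.89 and 3.69 on Cnot3+/- 1 and 2, against 4.44 and 3.91 on wild-type 1 and 2, and with 4.09 and 3.57 on Cnot3+/- 1 and 2, against 3.78 and 4.06 on wild-type 1 and 2. Birc5 and Aurkb encode members of the chromosomal passenger complex. Birc5 had 3.58 and 4.44 on the Cnot3+/- arrays and 3.41 and 3.45 on the wild-type arrays, and Aurkb had 3.03 and 3.48 on the Cnot3+/- arrays and 2.81 and 2.91 on the wild-type arrays. Nusap1, a spindle microtubule protein, had 3.20 and 4.46 on the Cnot3+/- arrays and 3.45 and 3.55 on the wild-type arrays. These 3 are again highest on Cnot3+/- 2. The mitotic kinesins did otherwise on the probe sets shown. Kif11, which pushes the spindle poles apart, had 3.91 and 3.85 on the Cnot3+/- arrays and 3.79 and 3.96 on the wild-type arrays. The 2 other probe sets of Kif11 have Cnot3+/- 2 as their highest array. One had 3.67 and 3.95 on Cnot3+/- 1 and 2, against 3.77 and 3.82 on wild-type 1 and 2. The dimmer one had 2.68 and 3.82 on Cnot3+/- 1 and 2, against 2.82 and 3.25 on wild-type 1 and 2. Kif20a, which acts in cytokinesis, had 3.39 and 3.24 on the Cnot3+/- arrays and 3.0 and 2.91 on the wild-type arrays.

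**Figure D3:**
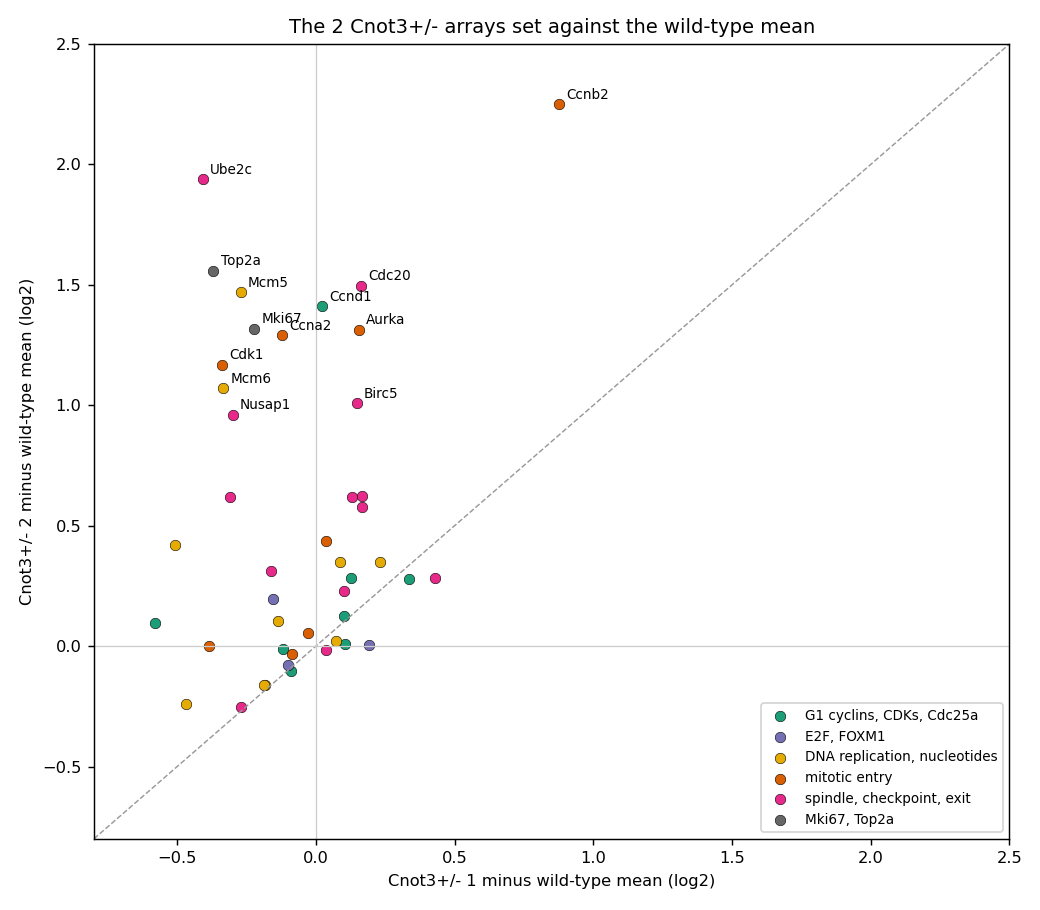
Each point is 1 of the 44 cell cycle genes, coloured by role, with its value on Cnot3+/- 1 (across) and on Cnot3+/- 2 (up), each minus the wild-type mean on the log2 scale. The dashed line marks equal values. Ccnb2 is at 0.88 across and 2.25 up, while Ube2c is at -0.41 across and 1.94 up. Genes labelled by name lie high on Cnot3+/- 2 and, other than Ccnb2, near or under 0 on Cnot3+/- 1.

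Probe sets of the same gene did not always go together. There were 34 genes with more than 1 probe set. Over all 107 probe sets, 55 were highest on Cnot3+/- 2 (51.4%), and over the 63 that passed the filter 37 were (58.7%). Both counts include a tie with a wild-type array in E2f1 and in E2f8. The second also holds probe sets of Cdc20 and Ccna2 whose wild-type means of 3.84 and 3.91 lie under the cutoff of 4.06. The share over all probe sets was not counted. In 4 genes the probe sets gave differences of opposite sign at least 0.5 apart. Top2a gave 0.60, -0.39 and -0.09, and Aurkb gave 0.40 and -0.42. Bub1b gave -0.26, -0.13 and 0.31, and Mcm6 gave 0.37, 0.48 and -0.03. For Cdc20 all 3 were above 0, at 0.83, 0.14 and 1.42. Aurka gave 0.73 and 0.06. The probe sets shown for Mcm5 and Prc1 (_x_at or _s_at) can match transcripts of several genes. Their other probe sets, all below the filter, gave 0.10 and 0.05 for Mcm5 and, with overlapping groups, 0.23 for Prc1.

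Other genes of the cycle, a list of 131, of which 128 were on the array and 105 were tested, gave no call either. None passed at an adjusted p under 0.05 (limma), where 0.0149% of all genes did. At an unadjusted p under 0.05, 2 of the 105 passed, where 3.59% of all genes did. These were E2f6, a repressing E2F, and Cdt1, which licenses replication origins. Their differences were 0.49 (SE 0.17) and 0.45 (SE 0.16). Differences were above 0 for 56 and below 0 for 49, with a median of 0.03. The groups did not overlap and were higher in Cnot3+/- for 17 (16.2%), beside 14.1% of all genes, and lower for 14 (13.3%), beside 17.4%. Cnot3+/- 2 was the highest array for 41 of the 105, or 39.0%. It was so for 21 of 44 other mitosis genes, or 47.7%, and for 7 of 35 other replication genes, or 20.0%, beside 24.9% of all genes. The largest differences were those of mitosis genes. Cdca3, a trigger of mitotic entry, had 4.70 and 5.90 on Cnot3+/- 1 and 2, against 4.54 and 4.47 on wild-type 1 and 2. Ncapg2, a condensin II subunit, had 3.70 and 5.64 on Cnot3+/- 1 and 2, against 4.08 and 3.86 on wild-type 1 and 2. Its wild-type mean of 3.97 lies under the filter's cutoff of 4.06. Ckap2, a spindle protein, had 4.96 and 5.82 on the Cnot3+/- arrays and 4.50 and 4.97 on the wild-type arrays, and Smc4, the core subunit of condensins, had 7.18 and 7.84 on the Cnot3+/- arrays and 6.76 and 7.12 on the wild-type arrays. Cnot3+/- 2 is highest in all 4, and the groups are apart for Cdca3 and Smc4.

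At the other end, 3 of the 4 lowest differences were in genes of nucleotide supply and replication. Dut, which removes dUTP, had 5.12 and 5.57 on the Cnot3+/- arrays and 5.94 and 5.65 on the wild-type arrays, and Rpa3, of the single-strand binding protein, had 6.92 and 6.43 on the Cnot3+/- arrays and 7.46 and 6.79 on the wild-type arrays. Tk1, thymidine kinase, had 7.86 and 7.32 on the Cnot3+/- arrays and 8.08 and 7.82 on the wild-type arrays. Cdk7, the CDK-activating kinase, had 6.69 and 6.60 on the Cnot3+/- arrays and 7.04 and 6.89 on the wild-type arrays. For Dut and Cdk7 the Cnot3+/- values lie under both wild-type values, by -0.45 (SE 0.21) and -0.32 (SE 0.14), and for the others the groups overlap. On the braking side, 7 of 9 CDK inhibitors and pocket proteins tested had differences above 0 and 2 below. Cnot3+/- 2 was highest for 7. Of all 13379 genes tested, 6403 had differences above 0, and Cnot3+/- 2 was highest for 24.9%. Both counts of 7 include Rbl1, whose wild-type mean of 4.03 lies under the filter's cutoff of 4.06. Rbl1 was tested through its value of 4.72 on Cnot3+/- 2, against 3.90 on Cnot3+/- 1. Cdkn1a, which encodes the inhibitor p21, varied within both genotypes, with 8.12 and 8.99 on Cnot3+/- 1 and 2, against 8.89 and 7.28 on wild-type 1 and 2.

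**Figure D4:**
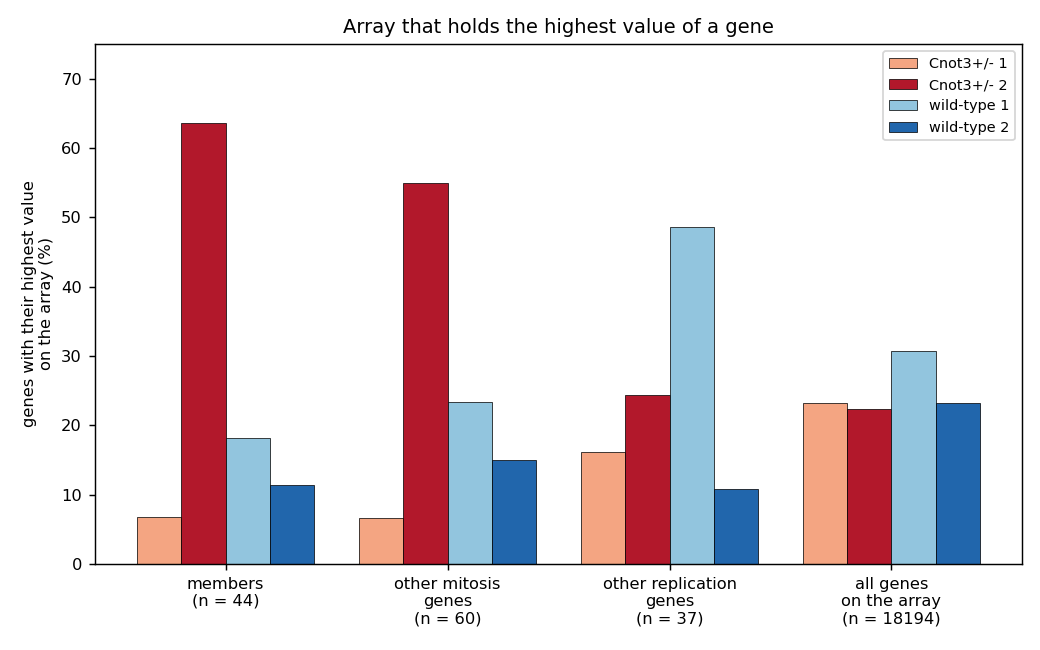
Share of genes, in percent, whose highest value lies on each array, for the 44 cell cycle genes, the 60 other mitosis genes, the 37 other replication genes and all 18194 genes, with no filter on dim probe sets. Cnot3+/- 2 holds the highest value for 63.6% of the cell cycle genes and 55.0% of the other mitosis genes, beside 24.3% of the other replication genes and 22.4% of all genes.

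Cell type markers, set beside the cycle genes, showed which cells' genes were high on the same array. Against the wild-type mean, the macrophage and Kupffer cell list had a mean of -0.34 on Cnot3+/- 1 and 1.79 on Cnot3+/- 2. The T and NK cell list had a mean of -0.12 on Cnot3+/- 1 and 1.14 on Cnot3+/- 2. List means are over the genes tested, 7 for T and NK cells, while the sums take in all markers measured. The T and NK cell marker Cd3g, the neutrophil marker S100a8 and the fibroblast marker Col1a1 were tested only through their values on Cnot3+/- 2. These were 5.57, 5.76 and 5.08, in that order. Most other lists were also higher on Cnot3+/- 2 than on Cnot3+/- 1. On Cnot3+/- 1 and 2, in that order, the means were -0.32 and 0.52 for stellate cells and fibroblasts, -0.92 and -0.11 for endothelium, 0.21 and 0.41 for cholangiocytes, -0.02 and 0.22 for neutrophils and -0.12 and -0.03 for B cells. They ran the other way for erythroid cells, at -0.02 and -0.27, and for hepatocytes, at 0.20 and 0.04. Stellate cell and fibroblast markers were highest on Cnot3+/- 2 in 7 of 9 cases, with summed signals of 976.8 and 1931 on the Cnot3+/- arrays, against 1445 and 1431 on the wild-type arrays. Endothelial markers were highest there in 3 of 9 cases, with sums of 1181 and 2055 on the Cnot3+/- arrays, against 2450 and 2491 on the wild-type arrays. Hepatocyte markers summed to 168500 and 157800 on the Cnot3+/- arrays, against 154900 and 156200 on the wild-type arrays. B cell markers summed to 171.8 and 183.3 on the Cnot3+/- arrays, against 203 and 180.6 on the wild-type arrays, and neutrophil markers to 217.5 and 294 on the Cnot3+/- arrays, against 216.2 and 218.5 on the wild-type arrays. Cholangiocyte markers summed to 121.4 and 137.8 on the Cnot3+/- arrays, against 99.36 and 110.2 on the wild-type arrays. Erythroid markers summed to 1023 and 937.5 on the Cnot3+/- arrays, against 908.3 and 1012 on the wild-type arrays, with 0 of 8 markers highest on Cnot3+/- 2. No marker reads 0 on this scale, and the lowest macrophage marker had a level of 4.35. The mitotic entry genes stood at 0.03 on Cnot3+/- 1 and 0.93 on Cnot3+/- 2, and the spindle genes at -0.14 and 0.79, on the same arrays. The mitotic entry mean includes Ccnb2, which was tested through its higher Cnot3+/- values. The part of other cell types in the values of the cycle genes was not tested.

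**Figure D5:**
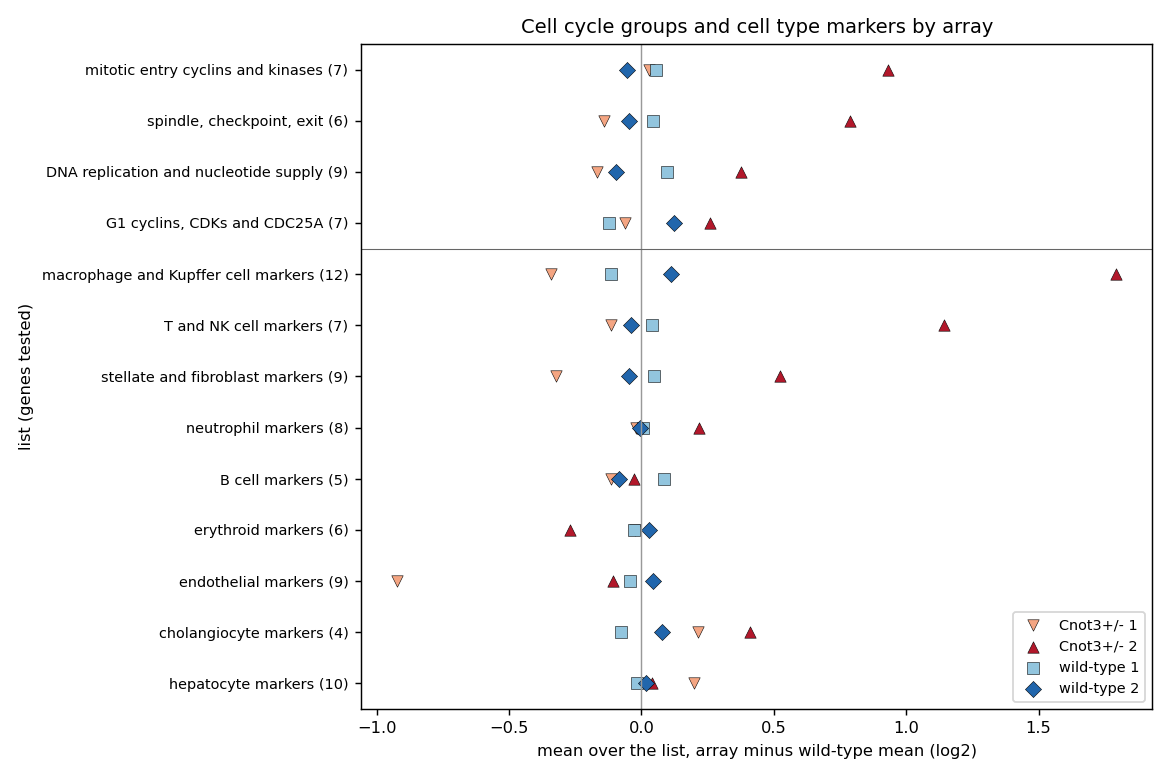
Mean over each list on each array, minus the wild-type mean on the log2 scale, for 4 groups of cell cycle genes (above the line) and 9 lists of cell type markers (below it), with the number of genes tested in brackets. Cnot3+/- 2 lies furthest right for mitotic entry genes (0.93), spindle genes (0.79), macrophage markers (1.79) and T and NK cell markers (1.14). It also does so for the replication, G1, stellate cell, neutrophil and cholangiocyte lists, while hepatocyte markers lie near 0 on it. The mitotic entry list includes Ccnb2, tested through its higher Cnot3+/- values.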

How the data were processed

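Biotin-labelled cRNA from liver total RNA of 2 Cnot3+/- and 2 wild-type mice was put on Affymetrix arrays of 1 colour, per the labels. The deposited values are log2 expression made by the authors through RMA, according to the submitters' processing notes, with no version given in the sources used here. RMA corrects background, normalizes across arrays and summarises probe sets, and it compresses differences of dim ones. The log2 scale was taken from the values, and 0 columns were left unmapped.

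Probe sets were named through the platform annotation, whose symbols can be old: 34958 had 1 symbol, 932 several and 9211 none. Through Entrez identifiers 34754 matched the RefSeq gene table (GRCm38.p6), which changed 0 symbols. The lowest 40% of probe sets by mean (under 4.06) were left out, and each gene was taken through its brightest remaining probe set, with _x_at and _s_at kinds only where no other passed (381 of 13379 genes). A gene below the filter is shown through its brightest probe set by the same rule.

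Genotypes were compared with limma 3.58.1 in R 4.3.3 (lmFit, eBayes, two-sided, no covariate), with Benjamini-Hochberg adjustment over all 13379 genes. The fit had 2 residual degrees of freedom, and the prior added 3.17 with an SD of 0.162. Intervals cover 95%. The fit was tested on simulated data. Sequences are from RefSeq. The genes and lists were chosen with earlier results of these data known. Every matched cell cycle gene is named, and of the other cycle genes the 4 largest differences in each direction, with Cdkn1a, E2f6 and Cdt1 chosen after their values were seen. Alternatives were other filters, quantile normalization, probe set means, a replicate block, an intensity trend, no moderation and leaving out each array.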

Additional observations from a re-analysis of the deposited data

How the results depend on the processing

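No cell cycle gene passed an adjusted p of 0.05 in any setting other than 1 that left out an array, and the median difference over the settings that kept all arrays lay between 0.07 and 0.16. The count of genes whose groups do not overlap and are higher in Cnot3+/- was 10 of 44 (22.7%, beside 12.7% of all genes) with no filter on dim probe sets and 3 of 19 (15.8%, beside 15.8%) with the lowest 60% left out, against 5 of 32 (15.6%, beside 14.1%). With a replicate block 0 cell cycle genes and 0 of all genes passed, against 2 of all genes without it. The numbers were not taken as pairs, since the labels do not tie them to a litter or day and only 2 pairs exist, with a correlation of 0.16 between same-numbered arrays. The difference of Mcm2 was 0.15 with the lowest 60% left out, 0.054 as the mean of its probe sets and 0.15 through its brightest probe set of any kind (chosen after seeing the data), and that of Cks2 was -0.032 with quantile normalization. The difference of Mcm5 was 0.10 with no filter, and that of Cdc20 0.14 through its brightest probe set of any kind. Those of Mcm2 and Cks2 were 4 turned signs among 179 values. Leaving out each array in turn turned 21 of 128 values, in 18 genes. All genes passing then numbered 0 to 38 (38 without Cnot3+/- 1), and cell cycle genes 0 to 1 (Ube2c, adjusted p 0.0482 in limma, without Cnot3+/- 1). Of the 32 genes, those with groups apart numbered 6 to 21 on the higher side (18.8% without Cnot3+/- 2, beside 30.1% of all genes, to 65.6% without Cnot3+/- 1, beside 31.8%) and 4 to 16 on the lower (12.5% without Cnot3+/- 1, beside 36.3%, to 50% without Cnot3+/- 2, beside 33.8%), since 1 array against 2 parts more easily, and the median ran from -0.11 to 0.30. The turned genes ran as follows: Ccnd2 -0.58 to 0.10, Ccnd3 -0.032 to 0.26, Cdk4 -0.24 to 0.042, Ccne1 -0.13 to 0.24, Cdk2 -0.29 to 0.16, Cdc25a -0.047 to 0.46, E2f1 -0.16 to 0.20, Pcna -0.081 to 0.17, Mcm2 -0.51 to 0.42, Mcm3 -0.14 to 0.10, Mcm5 -0.27 to 1.47, Mcm6 -0.33 to 1.07, Ccna2 -0.12 to 1.29, Cdk1 -0.34 to 1.17, Cks2 -0.030 to 0.054, Ube2c -0.41 to 1.94, Cenpa -0.31 to 0.62, Racgap1 -0.16 to 0.31. The number of arrays and the dimness of 12 genes limit what could be seen, and the cause of the changes was not tested other than where fewer arrays are named.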
